A study of Mus musculus with 7 samples.

Results

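The genes described here are 9 enzymes that build triglyceride in fat cells, Gpam, Gpat3, Gpat4, Agpat2, Agpat3, Lpin1, Dgat1, Dgat2 and Gpd1, together with Pnpla3, a lipid droplet protein of the patatin-like family. They were chosen by gene symbol, with earlier results of these data known, and all 10 were found among the 55487 genes of the deposited count table. Their RNA was counted in whole inguinal fat, a white depot under the skin of the groin, in 4 imBAT and 3 sham libraries. All mice were NOD/ShiLtJ, a strain that develops autoimmune diabetes, and were injected at a blood glucose of 190 to 230 mg/dL. The imBAT mice received, under the skin for 7 days at 1.5 mg/kg body weight, the proteins above 100 kDa from buffer that brown adipocytes had conditioned. The sham mice received KRBH buffer, the buffer without those proteins as far as the labels say. Tissue was taken 2 to 8 weeks after the injections, and neither the week nor the age is given per library. Whether every library stands for its own mouse is not stated, so a p-value here measures spread between libraries, which may in part be technical.

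Triglyceride is assembled by adding fatty acids, carried as acyl-CoA, to a glycerol backbone. Glycerol 3-phosphate receives a first acyl chain from a glycerol phosphate acyltransferase and another from a lysophosphatidate acyltransferase, a lipin then removes the phosphate, and a diglyceride acyltransferase adds the last chain. In white adipocytes this route stores the energy that lipases later release, and loss of AGPAT2 in humans causes a congenital loss of fat. PNPLA3 sits on lipid droplets, is related to the main adipocyte triglyceride lipase PNPLA2, and is induced by feeding in mouse liver and fat.

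The libraries held 43360208 to 63650016 counts in imBAT and 41025786 to 44983250 in sham, and no member had fewer than 57 counts in any library. Adipocyte markers were present in every library. The sum of 12 of them, Adipoq and Plin1 among them, was 13060 to 30120 CPM (counts per 1e+06 library counts, scaled by the TMM method) in imBAT and 2159 to 4606 in sham, and all 12 rose. The 7 T cell markers summed to 144.7 to 451.8 CPM in imBAT and 864.7 to 1077 in sham, and the 6 B cell markers to 191.0 to 520.0 and 1147 to 1414 in the same order. All 13 of these lymphocyte markers fell. The 6 mammary epithelium markers summed to 584.6 to 1207 CPM in imBAT and 87.1 to 295.4 in sham. Of 4 brown adipocyte markers, Ucp1, the defining one, stayed at or under 2.04 CPM in every library and was not tested, Cox7a1 was not called, and Cox8b and Cidea were called higher. Cox8b stood at 5.35 to 28.5 CPM in imBAT and 0.48 to 2.06 in sham, with a log2 fold change of 3.14 ± 0.71 (adjusted p = 0.00899, and 2.32 without imBAT replicate 3). Cidea overlapped, at 4.48 to 39.0 CPM in imBAT and 1.36 to 5.26 in sham (2.47 ± 0.80, adjusted p = 0.0357), and lost its call without imBAT replicate 3 (1.44, adjusted p = 0.078) or without sham replicate 2 or 3 (2.25 and 2.13, adjusted p = 0.113 for both). Of 6 macrophage markers 4 rose (387.7 to 1344 CPM in sum in imBAT, 370.5 to 407 in sham), and of 5 progenitor markers 4 rose. Of 5 endothelial markers 4 rose (Cdh5 by 0.97 and Tek by 1.32 on the log2 scale) and Pecam1 fell by 0.43. The part of these differences in tissue content in the results on the members was not tested beyond the scaling to adipocyte markers given below. In whole tissue, fewer cells of a type and less RNA per cell cannot be told apart.

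All 10 members were higher in imBAT than in sham. Pnpla3 was 73.8-fold higher, Dgat2 31.7-fold, Gpd1 17.9-fold and Agpat2 11.6-fold, while Gpat3 was 5.57-fold, Gpam 4.72-fold and Dgat1 3.05-fold higher. Gpat4, Lpin1 and Agpat3 differed least, at 2.05-fold, 1.76-fold and 1.60-fold. In edgeR's quasi-likelihood test each had an adjusted p under 0.05 over 26393 genes, of which 24.3% were called higher, 19.3% lower and 43.5% either way. No member's groups overlapped, and 26.8% of all genes tested were likewise higher in imBAT without overlap. The median log2 fold change was 2.36 over the members, -0.01 over all genes tested and 2.97 over the adipocyte markers. The calls of Lpin1 and Agpat3 were the least secure. Lpin1 lost its call when imBAT replicate 3 or 4 or sham replicate 2 or 3 was left out (adjusted p 0.0614 to 0.0889), and Agpat3 when sham replicate 2 or 3 was (adjusted p 0.0776 and 0.0766).

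**Figure D1:**
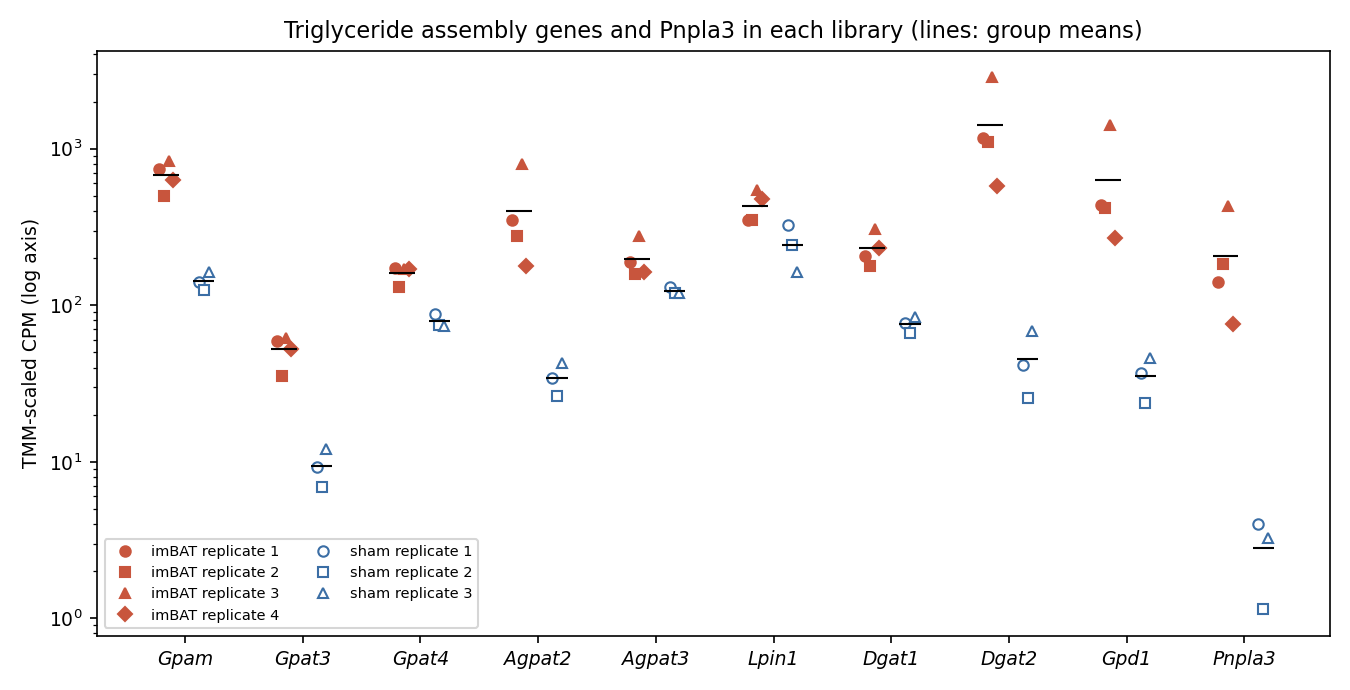
TMM-scaled CPM on a log axis for each of the 10 genes in each library, imBAT as filled red symbols and sham as open blue symbols, with black lines at the group means. The 4 imBAT values lie above the 3 sham values for every gene, by the widest margin for Pnpla3 (76.3 to 429.5 CPM in imBAT, 1.15 to 4.02 in sham).

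The sequences upstream of 4 members are shown, from Pnpla3, which differed most, through Agpat2 and Gpam to Lpin1, which differed least but for Agpat3. No upstream sequence was available for Dgat2, Gpd1, Dgat1 and Gpat4. Each is the 250 bases before the RefSeq gene start on GRCm38.p6, written 5′ to 3′ on the strand of the gene, with any searched motif in capitals. The windows are chr15:84167566-84167815 on the plus strand for Pnpla3, and on the minus strand chr19:55127239-55127488 for Gpam, chr2:26604418-26604667 for Agpat2 and chr12:16610967-16611216 for Lpin1.
Pnpla3: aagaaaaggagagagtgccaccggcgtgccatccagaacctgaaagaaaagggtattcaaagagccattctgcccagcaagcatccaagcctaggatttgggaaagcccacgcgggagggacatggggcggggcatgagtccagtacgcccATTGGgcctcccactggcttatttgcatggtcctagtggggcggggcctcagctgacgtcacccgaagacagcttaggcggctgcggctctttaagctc
Gpam: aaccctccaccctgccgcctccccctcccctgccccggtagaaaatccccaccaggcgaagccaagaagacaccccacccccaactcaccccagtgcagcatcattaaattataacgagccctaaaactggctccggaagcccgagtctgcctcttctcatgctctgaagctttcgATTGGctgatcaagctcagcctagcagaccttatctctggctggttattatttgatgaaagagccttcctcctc
Agpat2: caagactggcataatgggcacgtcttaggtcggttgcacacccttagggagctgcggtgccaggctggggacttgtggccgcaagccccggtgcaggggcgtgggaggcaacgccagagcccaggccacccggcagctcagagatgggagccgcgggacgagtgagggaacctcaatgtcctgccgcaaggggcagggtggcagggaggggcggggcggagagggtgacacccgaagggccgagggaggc
Lpin1: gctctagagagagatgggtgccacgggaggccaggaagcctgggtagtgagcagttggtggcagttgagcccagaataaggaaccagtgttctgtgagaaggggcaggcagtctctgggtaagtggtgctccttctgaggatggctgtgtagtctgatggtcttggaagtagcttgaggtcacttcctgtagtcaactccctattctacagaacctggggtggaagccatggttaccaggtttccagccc

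Both strands of 7 windows of 6 members (Gpam has a pair; Gpat3 and Agpat3 are the others) were searched for the E-box CACGTG, the sterol element TCACNCCAC, the DR1 direct repeat bound by PPAR proteins, the TATA box (letters TATAAA) and the CCAAT box. CCAAT was read on the opposite strand, as ATTGG, starting 99 bases before the gene start of Pnpla3 and 74 bases before that of Gpam, and in no other member window. It is in 33.8% of the 32851 promoter windows of the same length. The E-box (6.02% of all windows), the sterol element (1.05%), the direct repeat (0.0335%) and the TATA box (12.4%) were in none of the 7. These letters are a description of the windows and not of binding. The G and C share was 58.4% for Pnpla3, 54.8% for Gpam, 69.2% for Agpat2 and 54.8% for Lpin1, with a median of 52.4% over all windows.

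Gpd1, the cytosolic dehydrogenase that makes glycerol 3-phosphate from a glycolytic intermediate, lies on chromosome 15 at 99717515 to 99725005 (GRCm38, as are the positions below). It stood at 435, 415, 1417 and 267.5 CPM in imBAT replicates 1 to 4 and at 36.7, 23.9 and 45.7 CPM in sham replicates 1 to 3. imBAT replicate 3 stood apart, and the lowest imBAT library was still above every sham library. The log2 fold change was 4.16 ± 0.63 (SE, adjusted p = 0.00214), and 3.34, or 10.1-fold, without imBAT replicate 3. Some of its exon bases, 13.0%, also belong to Gm16537 on the opposite strand, which had at most 14 counts in a library.

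Gpam encodes the mitochondrial glycerol phosphate acyltransferase and lies on chromosome 19 at 55067268 to 55127238. It stood at 742, 499, 834 and 628 CPM in imBAT replicates 1 to 4, against 141, 124 and 163 CPM in sham replicates 1 to 3, a log2 fold change of 2.24 ± 0.20 (adjusted p = 0.000767). Both groups were tight, with a highest to lowest ratio of 1.67 in imBAT and 1.31 in sham. Gpat3, an acyltransferase of the endoplasmic reticulum on chromosome 5 at 100845713 to 100899102, stood at 59.2, 35.2, 61.7 and 52.7 CPM in imBAT and 9.26, 6.89 and 11.98 CPM in sham. Its log2 fold change was 2.48 ± 0.25 (adjusted p = 0.000867). Of its 3502 exon bases, 1052 also belong to 4930458D05Rik on the opposite strand, which had up to 355 counts in imBAT and 89 in sham libraries. Gm42987 on the same strand shares 259 of them and had up to 188 counts in imBAT and 37 in sham libraries. The strand setting is not given and would not separate Gm42987, so the counts of Gpat3 are uncertain to that extent.

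Gpat4, another acyltransferase of the endoplasmic reticulum on chromosome 8 at 23171265 to 23208346, differed least of the 3. It stood at 174, 130.8, 170.2 and 172 CPM in imBAT replicates 1 to 4, against 87.7, 75.2 and 73.5 CPM in sham, a log2 fold change of 1.04 ± 0.13 (adjusted p = 0.00119). Per kilobase of exon, Gpam was the highest of the 3 in both groups, at 101 ± 21.7 CPM in imBAT and 21.5 ± 2.94 in sham (SD, n = 4 and 3). Its share of their summed per-length level was 69.8% to 74.4% in imBAT and 57.4% to 63.0% in sham, and that of Gpat4 was 15.1% to 19.0% and 28.2% to 35.5%. The shares did not overlap between the groups for either gene.

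The lysophosphatidate acyltransferases split further apart. Agpat2, the main adipocyte form on chromosome 2 at 26593057 to 26604417, stood at 348, 278.5, 795 and 178 CPM in imBAT replicates 1 to 4 and at 34.5, 26.1 and 42.8 CPM in sham replicates 1 to 3. Its log2 fold change was 3.54 ± 0.52 (adjusted p = 0.00193), and 2.91, or 7.52-fold, without imBAT replicate 3. Of its exon bases, 3.0% also belong to Egfl7 on the opposite strand, which had up to 7483 counts in imBAT and 3558 in sham libraries. With the strand setting not given, the counts of Agpat2 are uncertain to that extent. Agpat3, a more widely expressed form on chromosome 10 at 78269178 to 78352489, stood at 189, 158, 278 and 163 CPM in imBAT and 132, 119 and 119 CPM in sham, a log2 fold change of 0.67 ± 0.20 (adjusted p = 0.0237). The groups came close, with the lowest imBAT library at 158.2 CPM and the highest sham library at 131.6 CPM. Per length, Agpat2 made up 80.0% to 91.3% of the summed level of the pair in imBAT, against 44.5% to 56.7% in sham. The pair is not the whole step, since other genes of the family such as Agpat1 are left out of this share. Agpat1 stood at 97.6 to 132.1 CPM in imBAT and 55.3 to 82.8 CPM in sham (log2 fold change 0.76 ± 0.16, adjusted p = 0.00704).

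Lpin1, the lipin that predominates in fat and also acts as a transcriptional coregulator, lies on chromosome 12 at 16535669 to 16610966. It stood at 350.2, 351, 547 and 475 CPM in imBAT replicates 1 to 4 and at 326, 243 and 164 CPM in sham replicates 1 to 3. Sham replicate 1 nearly reached the lowest imBAT library, and the sham libraries spread over a highest to lowest ratio of 1.99. The log2 fold change was 0.82 ± 0.25 (adjusted p = 0.03). Its per-length share among the 3 lipin genes overlapped between the groups, at 78.2% to 86.7% in imBAT and 75.5% to 82.7% in sham.

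**Figure D2:**
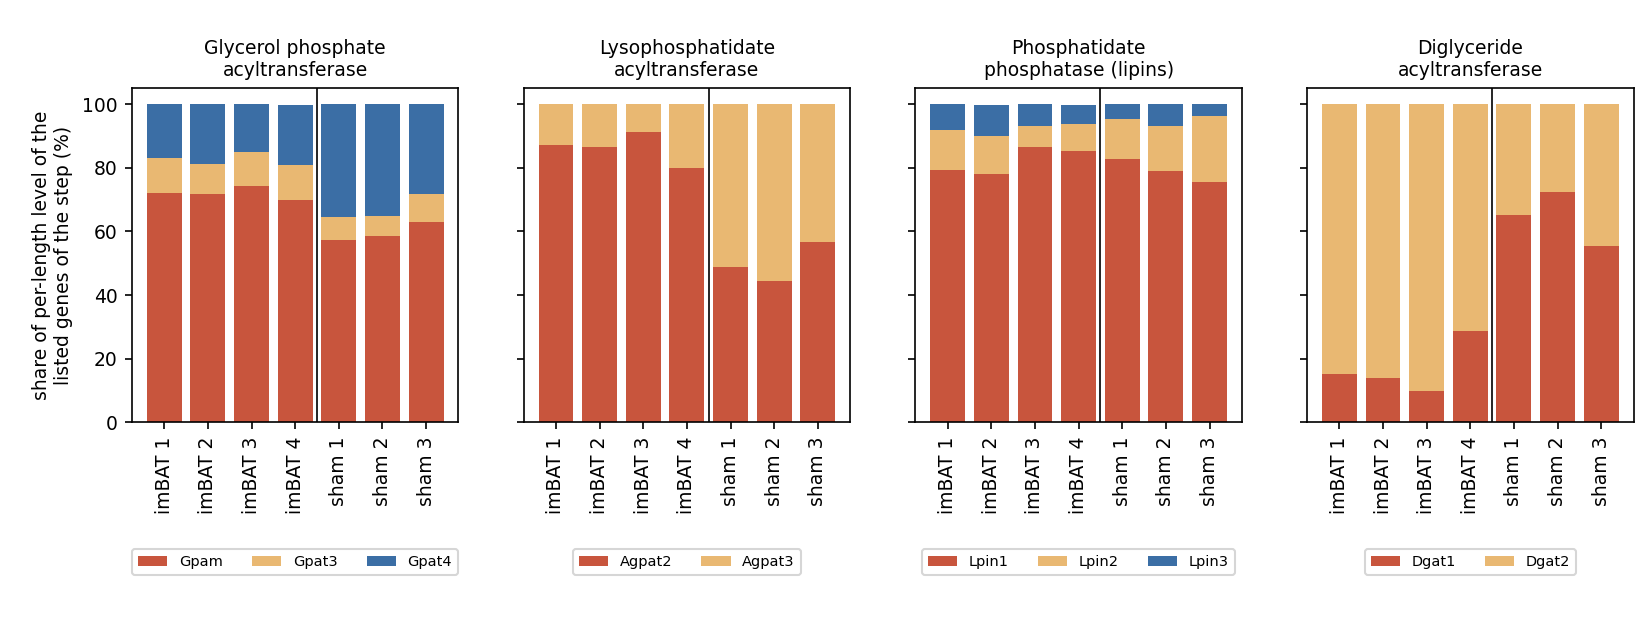
Stacked bars give, in each library, the share in percent of the summed per-length level (CPM per kilobase of exon) that each listed gene contributed at 4 enzymatic steps, with imBAT libraries left of the line and sham libraries right of it. Dgat2 held 71.3% to 90.2% of the diglyceride acyltransferase level in imBAT and 27.5% to 44.5% in sham, and Agpat2 and Gpam also took larger shares in imBAT, while the lipin shares of Lpin1 overlapped. Only the listed genes enter the shares, so Agpat1 and Gpat2 are left out.

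At the last step Dgat2 differed more than Dgat1 between the groups. Dgat2 and Dgat1 are unrelated proteins that both add the last acyl chain. Dgat2, on chromosome 7 at 99153658 to 99182719, stood at 1163, 1105, 2857 and 582 CPM in imBAT replicates 1 to 4, against 41.6, 25.4 and 68.1 CPM in sham replicates 1 to 3. Its log2 fold change was 4.98 ± 0.64 (adjusted p = 0.00133), and 4.35, or 20.4-fold, without imBAT replicate 3. Dgat1, on chromosome 15 at 76502015 to 76511953, stood at 206, 179, 308 and 232 CPM in imBAT and 77.2, 66.4 and 84.1 CPM in sham, a log2 fold change of 1.61 ± 0.19 (adjusted p = 0.00105). Per kilobase of exon Dgat2 averaged 463 ± 321 CPM in imBAT and 14.6 ± 6.99 in sham, and Dgat1 averaged 75.7 ± 18.2 and 24.8 ± 2.93 in the same order (SD, n = 4 and 3). Dgat1 was thus the more abundant transcript of the pair in all 3 sham libraries and Dgat2 in all 4 imBAT libraries.

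Pnpla3 had the widest difference of the members. It lies on chromosome 15 at 84167837 to 84187236 and held 7586, 11160, 17463 and 3183 counts in imBAT replicates 1 to 4 and 182, 57 and 168 counts in sham replicates 1 to 3. In scaled units this was 139.8, 182.5, 429.5 and 76.3 CPM in imBAT and 4.02, 1.15 and 3.26 CPM in sham. The log2 fold change was 6.21 ± 0.76 (adjusted p = 0.00114), the 17th highest among the genes tested, and 5.52, or 45.9-fold, without imBAT replicate 3. The spread was wide in both groups, with a highest to lowest ratio of 5.63 in imBAT and 3.51 in sham. Of its exon bases, 6.78% also belong to Gm49513 on the same strand, which had at most 33 counts in a library.

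The order of the members by per-length level differed between the groups. In imBAT the order was Dgat2, Gpd1, Agpat2, Pnpla3, Gpam, Dgat1, Lpin1, Agpat3, Gpat4 and Gpat3, from 463 to 14.9 CPM per kilobase. Neighbours overlapped in range except Dgat1 with Lpin1, Lpin1 with Agpat3, and Gpat4 with Gpat3. In sham the order was Lpin1, Dgat1, Gpam, Agpat2, Agpat3, Dgat2, Gpd1, Gpat4, Gpat3 and Pnpla3, from 25.3 to 1.81 CPM per kilobase, and the one gap between neighbours lay between Gpat4 and Gpat3. The first 8 genes in sham lay between 11.8 and 25.3 CPM per kilobase.

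Ratios of genes that serve the same step, and of Pnpla3 to Pnpla2, were compared within a library, where library scaling cancels. Differences in tissue content between the groups do not cancel, and their part in these ratios was not tested. A set of 5 pairs was tested with a two-sided exact permutation test of the 7 libraries, for which 0.0286 is the smallest p, and adjusted over the 5 pairs. The log2 ratio of Dgat2 to Dgat1 counts was 2.42 ± 0.79 in imBAT and -0.86 ± 0.54 in sham (SD, n = 4 and 3), a difference of 3.28 ± 0.50 (SE, exact p = 0.0286, adjusted p = 0.0357). For Agpat3 to Agpat2 the log2 ratio was -0.84 ± 0.57 in imBAT and 1.87 ± 0.36 in sham, a difference of -2.70 ± 0.35 (exact p = 0.0286, adjusted p = 0.0357). For Gpat4 to Gpam it was -2.05 ± 0.19 in imBAT and -0.86 ± 0.26 in sham, a difference of -1.19 ± 0.18 with the same exact p. For Gpat3 to Gpam the values overlapped, at -3.82 to -3.58 in imBAT and -4.17 to -3.77 in sham, a difference of 0.26 ± 0.13 that did not pass (exact p = 0.114, adjusted p = 0.114). For Pnpla3 to its relative Pnpla2, the main triglyceride lipase, the log2 ratio was -3.39 ± 1.03 in imBAT and -7.14 ± 0.58 in sham, a difference of 3.75 ± 0.61 (exact p = 0.0286, adjusted p = 0.0357).

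To set the members against the amount of adipocyte RNA, the same edgeR test was run with every library scaled to the geometric mean of the 12 adipocyte markers. That mean was 544 to 1162 CPM in imBAT and 64.1 to 141 in sham. On this scale 93.6% of all genes tested were called lower in imBAT and 0.33% higher, with a median log2 fold change of -2.97 over all genes and -0.60 over the members. Pnpla3, Dgat2 and Gpd1 were called higher in imBAT relative to the markers in this fit. Its adjusted p-values can be too small, since all genes of a library share the error of its marker level. Pnpla3 stood at 16.9%, 33.6%, 37.0% and 10.3% of the marker level in imBAT replicates 1 to 4, against 3.31%, 1.79% and 2.32% in sham replicates 1 to 3, a log2 fold change of 3.30 ± 0.50 (adjusted p = 1.24e-10). Dgat2 stood at 141%, 203%, 246% and 78.4% of it in imBAT and 34.2%, 39.7% and 48.4% in sham (2.03 ± 0.49, adjusted p = 4.89e-05).

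Gpd1 overlapped on the marker scale, at 36.1% to 122% of the marker level in imBAT and 30.2% to 37.3% in sham. Its log2 fold change there was 1.11 ± 0.46 (adjusted p = 0.0178), and the call was lost without imBAT replicate 3 (0.72, adjusted p = 0.11), without sham replicate 1 (1.04, adjusted p = 0.083) and with scaling to Adipoq alone (0.97, adjusted p = 0.0914). Agpat2 (0.49 ± 0.45), Gpat3 (-0.46 ± 0.45) and Gpam (-0.75 ± 0.46) were not called against the markers, with adjusted p of 0.283, 0.319 and 0.105. Dgat1 (-1.39 ± 0.44), Gpat4 (-1.96 ± 0.45), Lpin1 (-2.22 ± 0.47) and Agpat3 (-2.37 ± 0.46) were called lower per marker, as were most genes tested. One marker level per library enters every gene in this fit, so its adjusted p-values can be too small. The same ratios were therefore also tested singly by exact permutation of the 7 libraries, with no adjustment over the 10 members. The exact p was 0.0286 for Pnpla3, 0.0571 for Dgat2, 0.0857 for Gpd1 and 0.343 for Agpat2, and 0.0286 for each of the other 6, all of which lay lower in imBAT, Gpam and Gpat3 included. The share of all genes that reach this exact p was not computed. Most genes lay lower on the marker scale, with a median of -2.97 in the fit, and Gpam and Gpat3 fell less than that median.

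**Figure D3:**
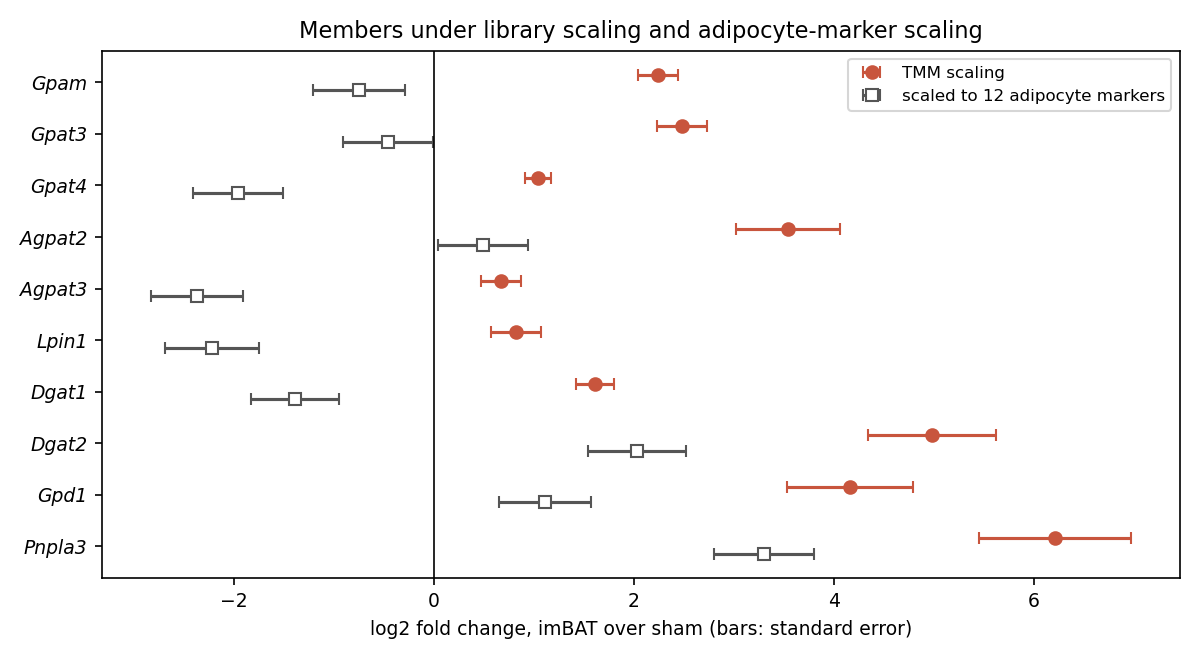
Log2 fold changes of imBAT over sham with standard errors, under TMM scaling (red circles) and under scaling to 12 adipocyte markers (open squares). All 10 genes lie above 0 under TMM scaling, from 0.67 to 6.21, and on the marker scale they run from -2.37 for Agpat3 to 3.30 for Pnpla3.

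The imBAT libraries also differed among themselves. imBAT replicate 3 was the highest of the 4 for 9 of the 10 members, all but Gpat4, and for 11 of the 12 adipocyte markers. The lowest library divided the members. Agpat2, Dgat2, Gpd1 and Pnpla3 were lowest in imBAT replicate 4, with highest to lowest ratios of 4.46 to 5.63. Lpin1 was lowest in replicate 1 and the other 5 in replicate 2, with ratios of 1.33 to 1.76 for these 6. The adipocyte markers, with a ratio of 2.14 for their geometric mean, were lowest in imBAT replicate 2 for 11 of 12. Of 11 lipogenic regulators and target genes, 9 were lowest in imBAT replicate 4 and all 11 were highest in replicate 3. These groupings were chosen after the values were seen and are given as a description of 4 libraries, whose time after injection is not stated.

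**Figure D4:**
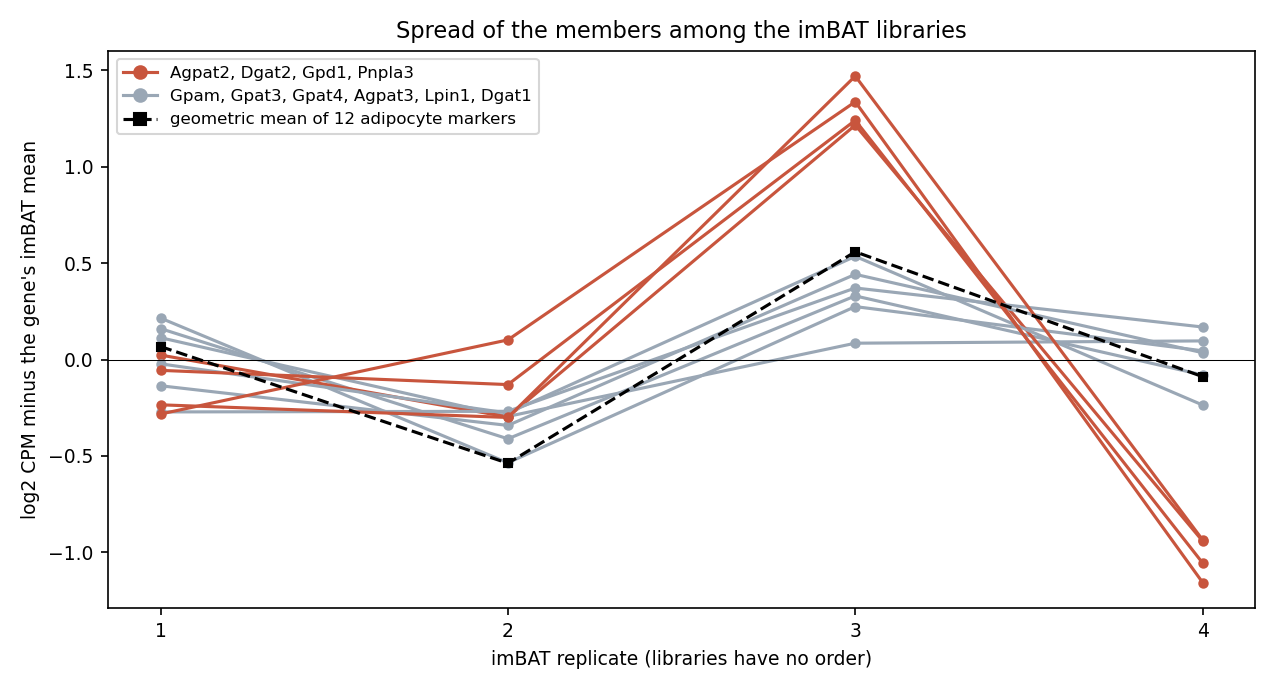
Log2 CPM of each member in the 4 imBAT libraries minus its mean over them, with the 4 members of wide spread in red, the other 6 in grey and the geometric mean of the adipocyte markers as a dashed black line (lines join the values of a gene, and the libraries have no order). The red lines are highest in replicate 3 and lowest in replicate 4, while the markers are lowest in replicate 2.

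Of 15 other triglyceride assembly genes, 14 were tested, 7 rose and 1 fell, with a median log2 fold change of 0.52. Over all genes tested, 24.3% were called higher and 19.3% lower. The monoglyceride acyltransferase genes Mogat1 and Mogat2, of which Mogat2 encodes the intestinal form, were among those that rose, and both were near 0 in sham. Mogat1 stood at 3.62 to 11.95 CPM in imBAT and 0.14 to 0.24 CPM in sham (log2 fold change 5.08 ± 0.55, adjusted p = 0.00096), and Mogat2 at 0.74 to 6.49 CPM and 0.04 to 0.16 CPM (4.71 ± 0.93, adjusted p = 0.00527, and 3.64 without imBAT replicate 3). The phosphatase gene Plpp3 rose by 2.28 ± 0.29 and Bscl2, which encodes the droplet-forming protein seipin, by 1.51 ± 0.27. Gpat2, a glycerol phosphate acyltransferase known mainly from testis, fell by 0.70 on the log2 scale, to 4.23 to 5.81 CPM in imBAT against 7.52 to 10.6 CPM in sham. Leaving out sham replicate 2 ended that call (adjusted p = 0.0919). Lpin2, at 51.9 to 69.2 CPM in imBAT and 55.1 to 62.8 CPM in sham, was not called (adjusted p = 0.543).

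Of 10 genes that supply glycerol 3-phosphate and acyl-CoA, 4 rose and none fell, with a median of 0.76 (24.3% of all genes tested were called higher). The acyl-CoA synthetase Acsl1 stood at 1324 to 2278 CPM in imBAT and 173.5 to 331 CPM in sham (log2 fold change 2.65 ± 0.30, adjusted p = 0.00101). Pck1, which makes the precursor of glyceride glycerol when glucose is scarce, rose by 2.87 ± 0.49 and by 3.71 without sham replicate 1, and the glycerol channel gene Aqp7 rose by 2.05 ± 0.36. Acsl4, at 40.1 to 48.7 CPM in imBAT and 41.7 to 45.5 CPM in sham, had a log2 fold change of 0.01 ± 0.10. Gpd1l, a relative of Gpd1, stood at 63.95 to 69.6 CPM in imBAT and 51.4 to 60.7 CPM in sham and was not called (0.25 ± 0.09, adjusted p = 0.0596). Limma voom called 7 genes of this list where edgeR called 4.

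Of 14 genes of the phospholipid branches that share phosphatidate or diglyceride with triglyceride synthesis, 6 rose and none fell, with a median of 0.36. Of all genes tested, 24.3% were called higher. Chpt1, the cholinephosphotransferase that draws on diglyceride, rose by 2.71 ± 0.48, and by 2.10 without imBAT replicate 3. The related Cept1 had a log2 fold change of -0.20 ± 0.10 and was not called (adjusted p = 0.137). Among the other Pnpla genes 4 of 6 were tested. Pnpla2 stood at 1176 to 2270 CPM in imBAT and 256 to 420.1 CPM in sham (2.36 ± 0.27, adjusted p = 0.00102). Pnpla7 fell by 0.35, a call that held without sham replicate 1 or imBAT replicate 3 and was lost without any other single library (adjusted p 0.0509 to 0.204). Pnpla6 and Pnpla8 were not called (adjusted p = 0.212 and 0.081).

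All 11 lipogenic regulators and target genes rose, where 24.3% of all genes tested were called higher. Their median log2 fold change was 3.87 where the adipocyte markers had 2.97. Without imBAT replicate 3 all 11 were still called, with a median of 2.62 against 2.71 for the markers. Called were 9 with any single sham library left out, 8 without the expression filter and 9 with the title number as a block. Srebf1 and Mlxipl, which encode the lipogenic transcription factors SREBP1 and ChREBP, rose by 1.72 ± 0.16 and 3.04 ± 0.42. Thrsp, a lipogenic gene of fat, stood at 434 to 2404 CPM in imBAT and 24.8 to 33.1 CPM in sham (5.15 ± 0.71, adjusted p = 0.00162, and 4.17 without imBAT replicate 3). Acly and Elovl6, which make acetyl-CoA and lengthen fatty acids, lost their calls whichever sham library was left out (adjusted p 0.0552 to 0.107), without the filter (0.164 for Acly and 0.108 for Elovl6) and with the block (0.101 for Acly and 0.0968 for Elovl6).

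**Figure D5:**
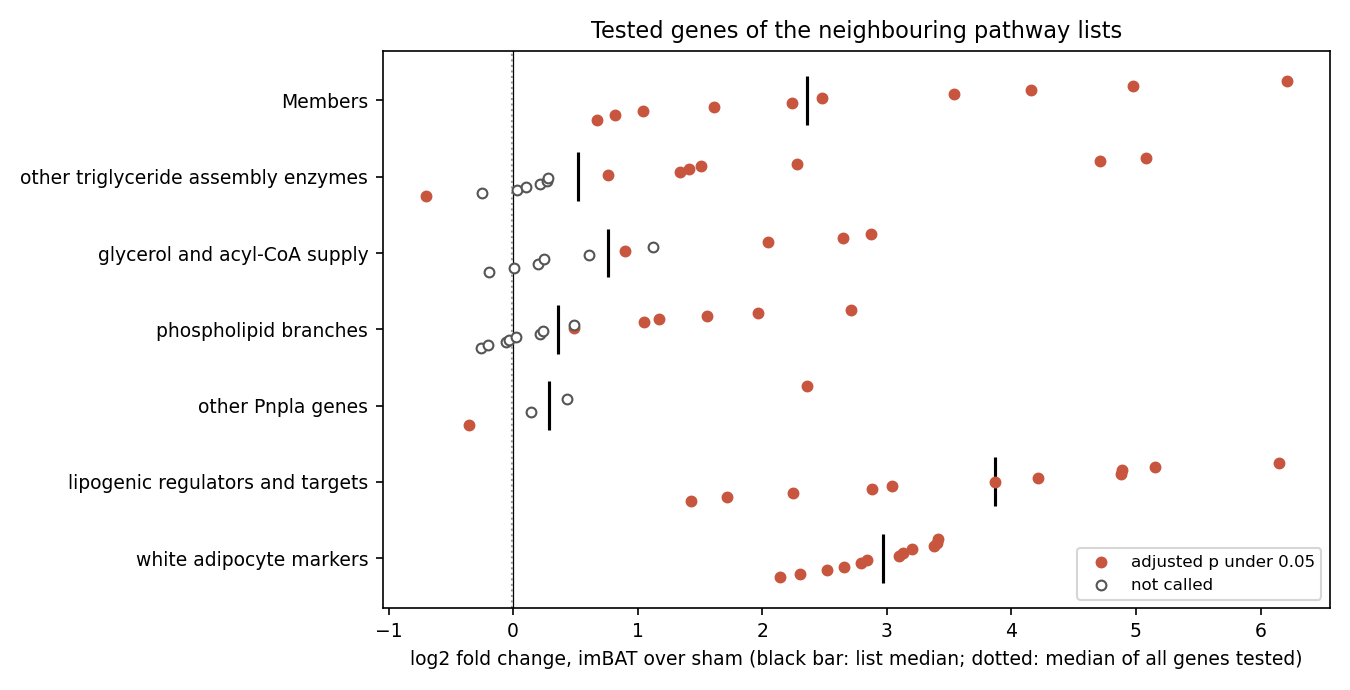
Log2 fold change of imBAT over sham for each tested gene of the members, 5 neighbouring lists and the adipocyte markers, filled where the adjusted p was under 0.05, with a black bar at each list's median and a dotted line at the median of all genes tested. The medians are 2.36 for the members, 0.52 for other triglyceride assembly enzymes, 0.76, 0.36 and 0.29 for the next 3 lists, 3.87 for lipogenic genes and 2.97 for adipocyte markers, and without imBAT replicate 3 the last 2 medians were 2.62 and 2.71.

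The genes whose profile over the 7 libraries came nearest to 4 of the members were sought among 14833 genes, by the root mean square difference of log2 CPM after each profile was centred on its mean. This measure follows the group difference and the spread within groups together. Nearest to Pnpla3 were Npr3, the natriuretic peptide clearance receptor gene (0.36), Alb, which encodes albumin (0.42), and Sncg, which encodes gamma-synuclein (0.64). Nearest to Dgat2 were Myl1 (0.30), the retinol carrier gene Rbp4 (0.34) and Aldh1a7 (0.39). Nearest to Gpam were Rtn2, Rab34 and Pdzrn3 at 0.09 to 0.11, and nearest to Lpin1 were Mpzl1, Osgin1 and Wdr60 at 0.17 to 0.18. The distances for Gpam and Lpin1 were smaller than those for Pnpla3 and Dgat2, whose profiles span a wider range.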

How the data were processed

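The deposited table holds, for each gene, raw counts in a column per library, 7 in all. Alignment was with STAR 2.7.9a against Ensembl release 101 (primary assembly), per the labels' protocols. The submitters' processing notes also list Subread, featureCounts 2.0.3, Salmon 1.5.2, edgeR and limma without saying what each did. Neither the strand setting nor the handling of reads with several matches is stated in the sources used here. Of its 55774 rows, 287 with a repeated gene identifier and identical counts were dropped. Positions and exon lengths (union of exons) came from GENCODE M21 on GRCm38, which held 55227 of the 55487 gene identifiers, and upstream sequences from RefSeq on GRCm38.p6. Groups follow the treatment label and replicates are numbered in accession order.

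The comparison used edgeR 4.0.16 in R 4.3.3 (robust quasi-likelihood F test, TMM, expression filter with a minimum count of 10, group alone, 5 residual degrees of freedom), with Benjamini-Hochberg adjustment over 26393 genes and calls under 0.05. A standard error is the log2 fold change divided by the square root of F. Log2 ratios of counts had 0.5 added to each count. The fit was tested on simulated data, where it called 28.4% of genes changed by 1 and 72% of those changed by 2 on the log2 scale. Of its 105 calls there, 11 were false, a larger part than the threshold of 0.05 allows for. Libraries of a group differed by 22.5 to 241.2 in chi-square per degree of freedom, so none was the same library counted again. This does not show whether each came from its own mouse.

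The members and lists were chosen with earlier results of these data known. The text names all members, members of the pathway lists, and for Gpam, Dgat2, Lpin1 and Pnpla3 the 3 genes with the nearest profile (mean of at least 1 CPM, log2 CPM with a prior count of 2, clone names left out). Tried in place of these were DESeq2 1.42.0, limma 3.58.1 (voom, weighted by library quality), scaling by RLE or by upper quartile, a filter of 1 CPM in 3 libraries or none, a block for the leading number of the titles, leaving out each library, other marker sets and 2 counts added to ratios. The exact test against the marker level was added after seeing the data.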

Additional observations from a re-analysis of the deposited data

Results flagged for a closer look

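In 13 of 68 values checked among the 4 imBAT libraries, 1 library lay far from the other 3. For independent, normally distributed values chance flags about 1 in 20. All genes checked come from the same 4 libraries and are not independent, so that rate gives no measure of an excess. Of these, 10 were in imBAT replicate 3. Among the members, Gpd1 had 1417 CPM in imBAT replicate 3 (267.5 to 435 in the rest of the group), and Gpat4 had 130.8 CPM in imBAT replicate 2 (170.2 to 174). In imBAT replicate 3 the high values were Mogat2 at 6.49 CPM (0.74 to 1.60 in the others), the mitochondrial glycerol phosphate dehydrogenase gene Gpd2 at 197 CPM (56.1 to 74.97), Aqp7 at 117 CPM (75.1 to 76.7), Chpt1 at 749.5 CPM (238 to 289), Mlxipl at 366 CPM (146 to 179), Thrsp at 2404 CPM (434 to 586), Acly at 4133 CPM (246 to 526) and Me1 at 1761 CPM (109 to 309.8). Gpat2 was low there, at 4.23 CPM (5.71 to 5.81 in the others). Acsl5 had 72.7 CPM in imBAT replicate 1 (63.6 to 64.3), and Cept1 had 34.2 CPM in imBAT replicate 2 (41.4 to 42.2). The adipocyte marker level was also highest in imBAT replicate 3, and its part in these values was not tested.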

How the results depend on the processing

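All 10 members kept a positive log2 fold change under all 14 alternatives, and 8 of them kept their call under each. The count of members called was 8 to 10 with a library left out. Agpat3 and Lpin1 were not called with upper-quartile scaling (adjusted p = 0.0737 and 0.0714), and Lpin1 not without the expression filter (0.0636); the cause was not tested. With upper-quartile scaling the log2 fold changes of all genes had a median of -0.25 (-0.01 with TMM), 4722 genes were called higher and 8180 lower (6407 and 5084 with TMM), 36.6% of calls were higher (55.8% with TMM), and 2 genes each were called lower among other triglyceride assembly enzymes and phospholipid branches. With a library left out, 3024 to 5097 genes were called lower over all genes (3024 and 3074 without sham replicate 2 and 3), 0 to 1 among other triglyceride assembly enzymes, and 1 to 2 higher and 0 to 2 lower among other Pnpla genes. Voom called 7 supply genes. Of the other Pnpla genes, 2 were called higher without a filter and 2 with the replicate block. The ratio differences kept their direction and, with 2 counts added, their calls; with a library left out they were 3.01 to 3.64 for Dgat2 to Dgat1 and 3.42 to 4.15 for Pnpla3 to Pnpla2, as values with no test. On the marker scale, 2 to 3 members were called higher and 4 lower with a library left out. Deviations from the group mean correlated weakly between libraries with the same title number (-0.01 for 28, 0.11 for 29 and 0.10 for 31). For 29 and 31, but not for 28, the imBAT library that correlated best with the sham library had the same number. Whether the numbers mark pairs of libraries cannot be told from these values. With the title number as replicate block the log2 fold change of Pnpla3 was 6.08, and the Dgat2 to Dgat1 difference was 3.21. All genes then gave 6198 higher and 4655 lower. With 3 and 4 libraries, and no time after injection per library, smaller differences could have been missed.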
